A study of Mus musculus with 11 samples.

Results

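The genes described here are 46 mouse genes of the motile cilium, chosen by name with earlier results of these data known. They are Foxj1, 3 RFX transcription factors and 42 genes for parts of the motile axoneme or its assembly. Both deposited tables list 45 of them among 20475 genes each, and Dnah3 was not found in either. Genes whose values averaged 10 normalized counts or more across a table were tested, and 40 of the 13938 such genes in the germline comparison and 42 of the 14081 in the inducible comparison were members. Armc4, Lrrc6 and Meig1 fell under this minimum in both tables, and Tekt4 and Ccdc113 in the germline table only. Just outside the minimum were germline Ccdc113 at a mean of 9.58 and inducible Lrrc6 at 7.43. Just inside were germline Ccdc146 at 14.4 and inducible Tekt4 at 10.6. Some members reached the minimum only because of their wild-type means. These were germline Ccdc146 (wild-type 23.4, knockout 5.39) and inducible Tekt4 (13.9 and 8.44), Ccdc146 (14.9 and 9.40) and Ccdc113 (16.5 and 9.46).

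Poly(A) RNA of mouse brain at embryonic day 12.5 was sequenced; the labels name the forebrain and the study the cortex. The germline comparison held 3 wild-type and 3 homozygous knockout-first libraries, in which a LacZ and neomycin cassette interrupts Kif20a, a mitotic kinesin, in mice derived from 1 embryonic stem cell clone. For the inducible comparison, litters treated with tamoxifen at E9.5 and E10.5 gave 2 wild-type and 3 knockout libraries; here CreERT2 driven by Nestin deletes a floxed Kif20a in neural progenitors. Control embryos of this kind are wild type in the labels and were littermates; for other experiments the study used Kif20a fl/fl littermates without Cre, so that the control libraries here may carry the floxed allele. Kif20a fell in both comparisons, as a check of the labels. It read 2456, 2295 and 2680 normalized counts in germline wild-type and 409, 374 and 503 in germline knockout libraries (adjusted p = 0.00845, limma, Benjamini-Hochberg). Inducible libraries gave less of a fall, as Kif20a read 4760 and 4844 in wild-type and 3125, 2915 and 2853 in knockout libraries, so that 61.7% of the wild-type mean remained (adjusted p = 0.0107, limma, Benjamini-Hochberg).

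Motile cilia beat by means of outer and inner dynein arms that slide the microtubule doublets of the axoneme, while radial spokes, the central apparatus and the nexin link shape the beat. Foxj1 is the forkhead transcription factor that switches on genes for motile axonemes, and the RFX factors bind X-box sequences in the promoters of genes for cilia of all kinds. In the embryonic forebrain, multiple cilia form in the choroid plexus epithelium, cortical progenitors carry a primary cilium that is not motile, and multiciliated ependymal cells arise later.

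Several libraries stood apart from others of their group, and some gene sums also differed between the groups. Total normalized counts were 13048716 to 15551274 in the germline and 24118520 to 24497307 in the inducible libraries, after an equalization that no longer shows sequencing depth. In germline knockout replicate 2, 9 cranial mesenchyme genes summed to 509 normalized counts, against 4780 to 20201 in the other germline libraries, and 7 microglia genes summed to 18.4 against 421 to 700. Hypoxia response genes summed to 51705 and 67879 in germline knockout replicates 1 and 2, against 15681 to 19169 in the other germline libraries. Of these 11 genes, 9 were higher in the germline knockouts by at least 1.5-fold at an unadjusted P of at most 0.05 in limma, against 2.07% of all genes. The sum of 4 Y-linked genes was 1.96 and 4.24 in the wild-type but 2389 to 3209 in the knockout libraries of the inducible table, so sex and genotype cannot be told apart there. In the germline table these sums were 1714, 9.83 and 4582 in wild-type and 4.49, 0 and 1376 in knockout libraries. Nothing in the labels says whether each library came from a separate embryo, and p-values measure the spread between these libraries only.

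Members differed widely in level. Per kilobase of exon in the GENCODE M1 annotation, wild-type means in the inducible table ran from 479 normalized counts for Mns1, a filament protein of the axoneme's inner wall, to 1.47 for Armc4, an outer arm docking factor. Gas8 of the nexin link stood at 470 and Foxj1 next at 407 per kilobase, and Rfx4, Rfx3 and Rfx2 followed at 262, 258 and 161. Dynein heavy chains were far lower, between 3.52 per kilobase for Dnah5 and 32.3 for Dnah1. In the germline table the order again began with Mns1 (337 per kilobase), ahead of Rfx3 (245), Gas8 (242), Foxj1 (155) and Rfx4 (107). Levels per kilobase rest on the gene model, and neighbours in this order were not tested against each other. No level per kilobase is given for Dnah7a, whose model in that annotation holds only 612 exon bases. Of the 50-base stretches of Dnah7a, 70.5% also occur in its copies Dnah7b or Dnah7c. Its counts, and those of Dnah7b, may therefore be split between copies. Exons of Ccdc39, Spag17 and Tekt2 overlap those of a gene on the opposite strand over 17.5%, 15.7% and 20.8% of their bases, and whether counting used strand is not given in the sources used here.

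The promoters of the members were read from the RefSeq promoter table of build GRCm38.p6, which holds 250 bases before and 50 after each start, and 38 members had an entry. GTTGCC, one arm of the X-box, occurred on either strand in 19 of 38 member promoters (50%), against 14.1% of 27024 genes and 14 of 35 primary cilium genes (40%). The full X-box, searched as GTTNCC, 1 to 3 bases and GGNAAC, was found in 1 member (2.63%), Ccdc151, against 0.903% of all genes. The forkhead core GTAAACA was found in 1 member (2.63%), Ak7, against 4.05% of all genes. The single arm is part of a full X-box whenever the free base is G. Of the 20 members with either form of the X-box, 8 had their nearest match within 60 bases upstream of the start. The sequences printed are those of the called members Dnaic2 and Dynlrb2, of Rfx2, whose values lay on opposite sides of 0 in the 2 comparisons, of Enkur, of Spag16 with its double match, and of Ccdc151 with the full X-box. Each runs 5′ to 3′ on the gene's strand, and capitals mark GTTGCC, its reverse complement GGCAAC, or the whole X-box. These matches are a description of letters, and no binding was measured.
Dnaic2, chr11:114727366-114727425, plus strand: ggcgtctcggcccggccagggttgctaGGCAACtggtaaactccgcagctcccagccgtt
Dynlrb2, chr8:116504937-116504996, plus strand: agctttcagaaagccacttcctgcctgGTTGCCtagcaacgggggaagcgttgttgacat
Rfx2, chr17:56831092-56831151, minus strand: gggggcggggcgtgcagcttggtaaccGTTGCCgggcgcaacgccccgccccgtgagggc
Enkur, chr2:21205367-21205426, minus strand: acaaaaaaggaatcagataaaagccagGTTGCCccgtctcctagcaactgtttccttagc
Spag16, chr1:69826840-69826899, plus strand: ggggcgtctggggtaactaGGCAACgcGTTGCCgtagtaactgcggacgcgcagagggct
Ccdc151, chr9:22002632-22002691, minus strand: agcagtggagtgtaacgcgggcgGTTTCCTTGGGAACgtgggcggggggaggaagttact

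The match in Dnaic2 began 26 bases upstream of the annotated start, that in Dynlrb2 51 bases, that in Enkur 34 bases and that in Ccdc151 34 bases. Rfx2 carried its match 116 bases upstream, and Spag16 carried a pair at 111 and 103 bases upstream.

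Of the 42 tested members, 6 fell in the inducible knockouts, by at least 1.5-fold at an unadjusted P of at most 0.05 in limma: Foxj1, Dnaic2, Rsph1, Dynlrb2, Ak7 and Armc3. Across all genes tested, 0.490% were called lower and 0.802% higher by this rule, and no member (0 of 42) was called higher. The log2 fold change, on the log2(normalized count + 1) scale, was below 0 for 41 of 42 members, against 50.8% of all genes, and its median was -0.33 against -0.00 over all genes. Every knockout library lay below every wild-type library for 19 members, against 12.2% of all genes, and above for 0 members, against 10.4%. Without the fold threshold 10 members had an unadjusted P of at most 0.05 and were lower, against 3.03% of all genes; the added ones were Rfx2, Ccdc40, Rsph9 and Stk36. After Benjamini-Hochberg adjustment over all genes, 0 members passed 0.05 in limma, with adjusted p between 0.710 and 0.996. The count of 6 became 2 without wild-type replicate 2 and 11 without knockout replicate 1, where 0.312% and 0.632% of all genes were called lower. In bulk RNA, fewer cells of a type and less RNA per cell cannot be told apart.

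**Figure D1:**
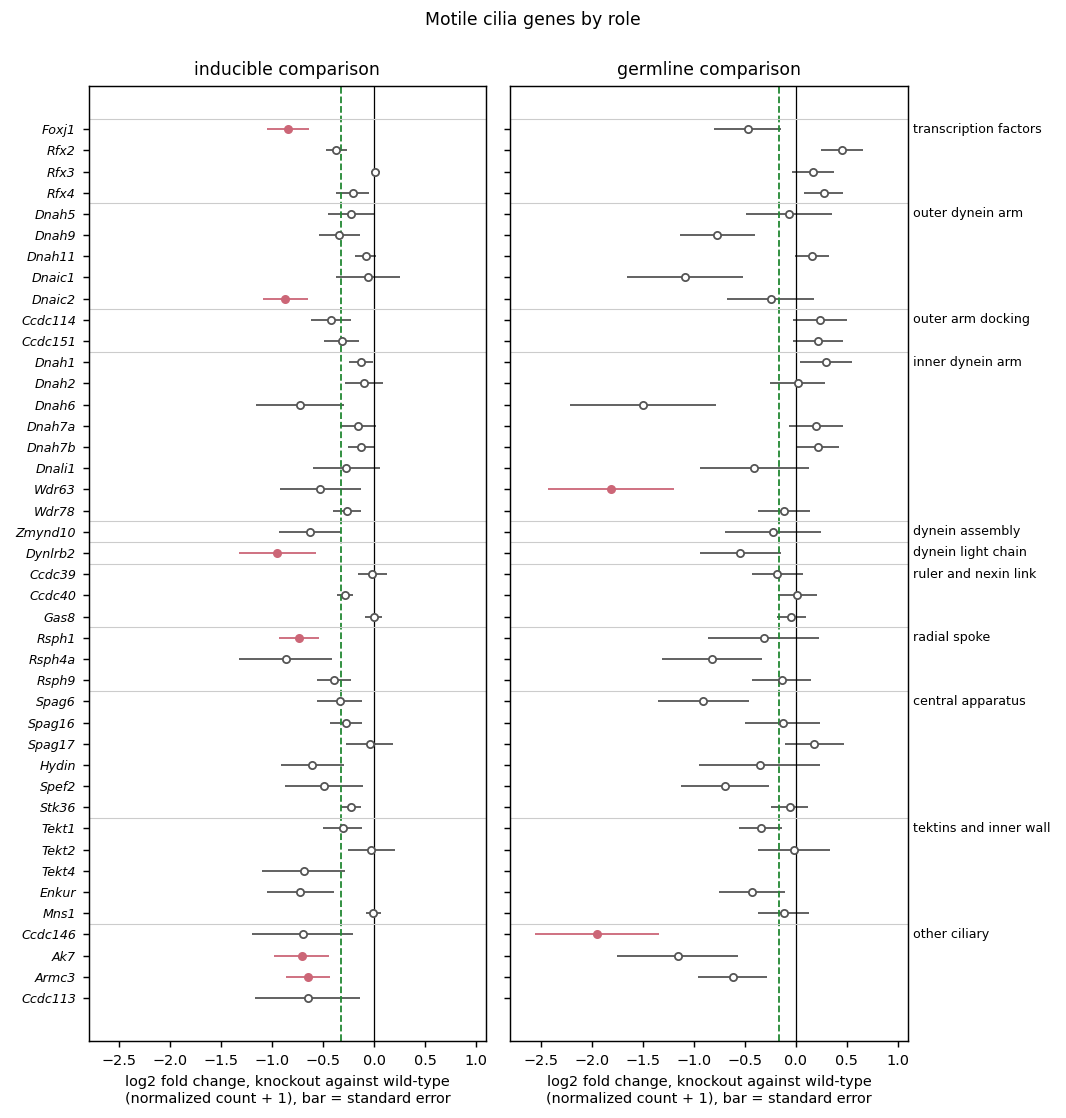
Log2 fold change of each tested member, knockout against wild-type, with its standard error, ordered by role; left, inducible comparison (2 wild-type, 3 knockout libraries), right, germline comparison (3 and 3). Filled red points passed 1.5-fold and P of at most 0.05 in limma, the dashed line is the members' median (-0.33 and -0.16), and 41 of 42 inducible points lie below 0 against 28 of 40 germline points.

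Among the regulators, Foxj1 (chr11:116192018-116196713 in mm9) read 951 and 1182 normalized counts in wild-type libraries of the inducible table and 726, 641 and 442 in its knockouts. The groups did not overlap, and 56.6% of the wild-type mean remained (log2 fold change -0.84, SE 0.20, adjusted p = 0.710, limma, Benjamini-Hochberg). The study lists Foxj1 among the genes down-regulated in its inducible knockouts, also at -0.84 and with a far smaller P value than the unadjusted one found here. Rfx2, a factor that acts with Foxj1 in motile ciliogenesis, read 537 and 546 against 418, 464 and 379, again without overlap (-0.37, SE 0.10, adjusted p = 0.750). It had an unadjusted P of at most 0.05 but not a 1.5-fold change. Rfx4, an RFX factor of the developing brain, read 1089 and 1388 against 1255, 1103 and 864, with overlapping groups (-0.21, SE 0.16, adjusted p = 0.884). Rfx3, which serves primary and motile cilia alike, read 2818 and 2881 against 2903, 2858 and 2865 and was the only member above 0, at 0.01 (SE 0.05, adjusted p = 0.977).

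For the outer dynein arm, the motor that sets beat frequency, the 5 tested members all had log2 fold changes below 0, between -0.87 and -0.05. Dnaic2, an intermediate chain that holds the arm together, read 68.9 and 93.5 in wild-type and 44.7, 49.1 and 37.3 in knockout libraries. All 3 knockout values lay below both wild-type values (-0.87, SE 0.22, adjusted p = 0.739, limma, Benjamini-Hochberg). The partner intermediate chain Dnaic1 read 15.7 and 25.4 against 21.4, 16.5 and 20.1, with overlapping groups (-0.05, SE 0.31). The heavy chains Dnah5, Dnah9 and Dnah11 lay at -0.23, -0.34 and -0.08. The docking factors Ccdc114 and Ccdc151, which anchor the arm to the doublet, did not overlap between groups; Ccdc114 read 72.9 and 96.7 against 56.3, 69.4 and 62.6, and Ccdc151 read 125 and 129 against 86.4, 119 and 103. Neither passed the thresholds (-0.42 and -0.32), and 12.2% of all genes were separated in this way with lower knockouts.

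None of the 8 inner dynein arm members was called, and all 8 lay below 0, between -0.73 for Dnah6 and -0.10 for Dnah2. Dnah6, a heavy chain, read 73.0 and 53.5 in wild-type and 66.4, 35.8 and 21.6 in knockout libraries, so the groups overlapped through knockout replicate 1. Wdr63, an intermediate chain of the inner arm, read 12.8 and 26.4 against 13.6, 14.8 and 9.64. Wdr78, another intermediate chain, was the only inner arm member without overlap, at 326 and 371 against 324, 304 and 248 (-0.26, SE 0.14). Such separation with lower knockouts was found for 12.2% of all genes. Zmynd10, which helps to assemble dynein arms in the cytoplasm, read 59.1 and 70.2 against 62.4, 32.0 and 35.2 (-0.63, SE 0.31).

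Dynlrb2, a dynein light chain of the roadblock family, had the largest fall of all members in the inducible comparison. It read 49.2 and 66.9 in wild-type and 36.0, 40.0 and 17.3 in knockout libraries, so 53.5% of the wild-type mean remained (-0.95, SE 0.38, adjusted p = 0.825, limma, Benjamini-Hochberg). Knockout replicate 3 was the lowest by far. Leaving it out gave -0.58 for Dynlrb2, which then missed the fold threshold, and the call was also lost without either wild-type library. Dnaic2 lost its call without wild-type replicate 2 (-0.65), while Foxj1 and Rsph1 remained called without any 1 library.

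In all 3 radial spoke members every knockout library lay below every wild-type library, against 12.2% of all genes in this comparison. Rsph1, a spoke head protein, read 62.1 and 61.8 in wild-type and 33.0, 40.7 and 37.1 in knockout libraries (-0.73, SE 0.20, adjusted p = 0.750, limma, Benjamini-Hochberg). Rsph4a, also of the spoke head, read 82.7 and 106 against 80.9, 64.8 and 25 (-0.87, SE 0.46) and did not pass, given the spread of its knockout values. Rsph9 read 114 and 107 against 95.4, 84.0 and 73.4 (-0.39, SE 0.17), at an unadjusted P of at most 0.05 without a 1.5-fold change.

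No central apparatus, nexin link or tektin member was called. The 6 central apparatus members lay between -0.61 for Hydin and -0.04 for Spag17. Hydin, a giant protein of a central pair projection, read 68.0 and 55.6 against 58.5, 37.7 and 28.9. Stk36, a kinase needed for the central pair, read 1020 and 856 against 803, 850 and 747 (-0.23, SE 0.10). For the ruler and nexin link, Ccdc40, which sets the axonemal repeat with Ccdc39, read 933 and 949 against 789, 817 and 711, without overlap (-0.29, SE 0.08). Its partner Ccdc39 and Gas8 were near 0 (-0.02 and -0.00). Enkur, of the inner wall of the doublet, read 62.0 and 92.4 against 61.4, 50.9 and 30.1, without overlap (-0.72, SE 0.33). Mns1 and Tekt2 were near 0 (-0.01 and -0.03), while Tekt1 and Tekt4 lay at -0.31 and -0.69.

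The 2 remaining called genes were Ak7 and Armc3. Ak7, an adenylate kinase of motile cilia, read 31.5 and 29.9 in wild-type and 20.4, 20.4 and 14.96 in knockout libraries (-0.71, SE 0.27, adjusted p = 0.825, limma, Benjamini-Hochberg). Armc3, an armadillo repeat protein, read 42.4 and 41.6 against 25.3, 27.7 and 26.5 (-0.64, SE 0.22, adjusted p = 0.825). In neither gene did the groups overlap. Without either wild-type library both genes lost their call (Ak7 -0.67 and -0.75, Armc3 -0.63 and -0.66), and Ak7 also lost it without knockout replicate 3 (-0.57). Ccdc146 and Ccdc113 lay at -0.70 and -0.65, with SEs of 0.49 and 0.51 and overlapping groups for both.

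**Figure D2:**
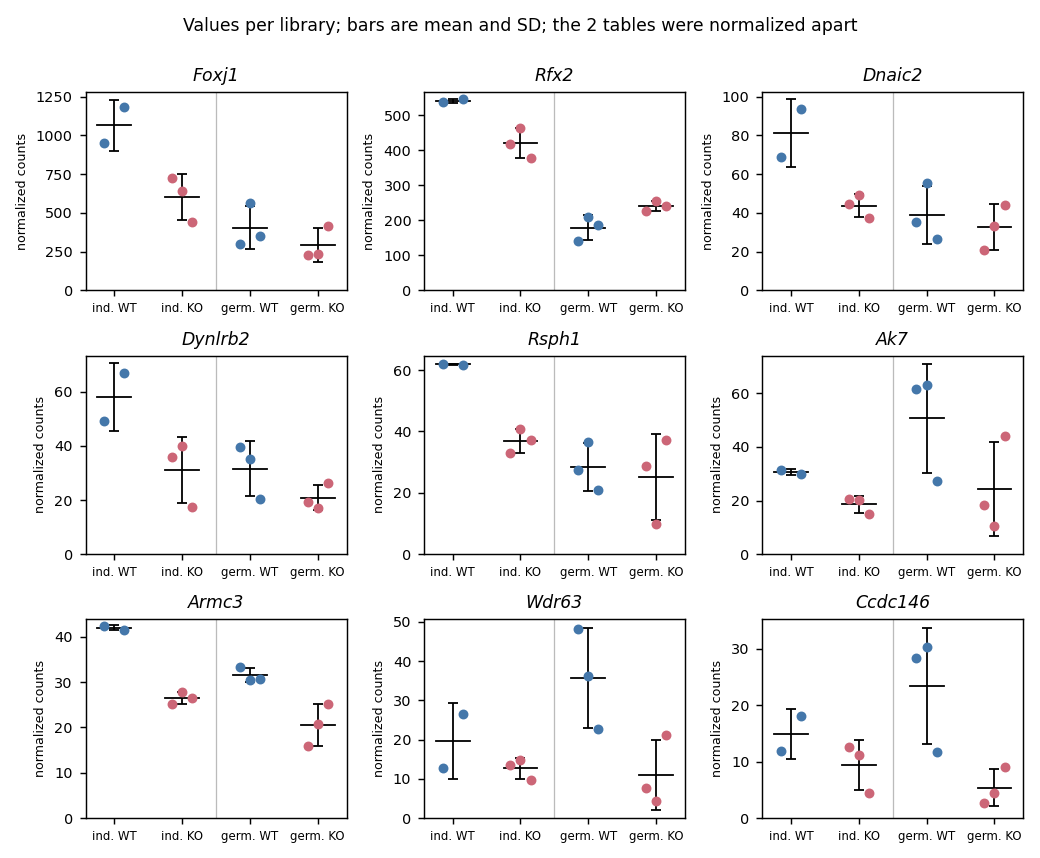
Normalized counts per library (y axes start at 0) of Foxj1, Rfx2 and the members called in either comparison; blue, wild-type, red, knockout, bars, mean and SD. The inducible groups are separate for Foxj1 (951 and 1182 against 442 to 726) and the germline groups for Ccdc146 (11.6 to 30.3 against 2.75 to 9.05), while Foxj1 overlaps in the germline panel.

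The inducible differences were larger among the members of low level. Of the 25 tested members with a mean of 10 to 100 normalized counts, 25 lay below 0 with a median of -0.61, and 5 were called. Tekt4, Ccdc146 and Ccdc113 among them reached the minimum only because of their wild-type means. Of the 17 with a mean of 100 or more, 16 lay below 0 with a median of -0.16, and Foxj1 was the one called. All genes in these ranges of level had medians of 0.00 and -0.00, and 1.76% and 0.193% of them were called lower, so that calls were more frequent at low level for all genes. The knockout libraries did not contribute alike. The members' median difference from the wild-type mean was -0.17, -0.24 and -0.55 in knockout replicates 1, 2 and 3, and replicate 3 was the lowest of all 5 libraries for 31 of 42 members. Wild-type replicate 2 lay above replicate 1 by a median of 0.06 over all members and 0.24 over those with means of 10 to 100, which in knockout replicate 1 lay at a median of -0.19.

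Among germline libraries, 2 of 40 members fell at the same thresholds, Wdr63 and Ccdc146, and 0 rose. Across all genes tested, 0.667% were called lower and 2.07% higher in this comparison. The log2 fold change was below 0 for 28 of 40 members, against 56.0% of all genes, with a median of -0.16 against -0.04. All knockout libraries lay below all wild-type libraries for 4 members (Wdr63, Tekt1, Ccdc146 and Armc3), against 7.55% of all genes, and above for 2 members (Rfx2 and Ccdc114), against 5.90%. Dropping the fold threshold left the count of lower members at 2, against 2.45% of all genes. In limma 0 members had an adjusted p under 0.05 (Benjamini-Hochberg, 0.779 to 0.994). The count of 2 became 0 without wild-type replicate 1 or without wild-type replicate 2 and 1 without knockout replicate 1. It became 5 without wild-type replicate 3, 7 without knockout replicate 3 and 3 without knockout replicate 2, the library that stood apart most. The share of all genes called lower moved too, to 0.917%, 2.90% and 4.58% in these 3 fits and to 0.301%, 0.330% and 0.396% without wild-type replicate 1, wild-type replicate 2 or knockout replicate 1.

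Ccdc146, a coiled-coil protein of centrioles and flagella (chr5:20798779-20930495 in mm9), read 28.3, 30.3 and 11.6 in wild-type and 2.75, 4.36 and 9.05 in germline knockout libraries. The groups did not overlap, and 23.0% of the wild-type mean remained (-1.95, SE 0.61, adjusted p = 0.779, limma, Benjamini-Hochberg). Its knockout mean of 5.39 lay under the minimum of 10, so the gene was tested only because of its wild-type level. Wdr63 (chr3:145703490-145771094 in mm9) read 48.1, 36.1 and 22.7 against 7.59, 4.31 and 21.1 (-1.81, SE 0.62, adjusted p = 0.779). In both genes wild-type replicate 3 and knockout replicate 3 lay next to each other, between the other libraries.

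Some other members of low level had large differences without being called. Ak7 read 61.3, 63.1 and 27.2 in wild-type and 18.3, 10.6 and 44.2 in knockout libraries (-1.16, SE 0.59). Dnah6 read 136, 102 and 30.1 against 22.03, 13.3 and 58.3 (-1.50, SE 0.72). Their groups overlapped, because wild-type replicate 3 lay below knockout replicate 3. Wild-type replicate 3 was the lowest wild-type library for 18 of 40 members. Dnaic1 lay at -1.08, Spag6 at -0.90, Rsph4a at -0.82, Dnah9 at -0.77 and Spef2 at -0.70, none of them called. Armc3 read 33.5, 30.5 and 30.7 against 15.8, 20.8 and 25.1 (-0.62, SE 0.34) and was the 1 of 40 members whose groups were separate, with lower knockouts, in both comparisons, against 0.524% of all genes tested in both.

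The germline regulators did not share 1 direction. Foxj1 read 300, 565 and 354 in wild-type and 227, 237 and 417 in knockout libraries, with overlap through knockout replicate 3 (-0.47, SE 0.32, adjusted p = 0.788, limma, Benjamini-Hochberg). Without knockout replicate 3 its difference was -0.75 and passed both thresholds, and without wild-type replicate 2 it was -0.21. Rfx2 read 140, 210 and 187 against 227, 256 and 242, so that every knockout library was higher (0.45, SE 0.20, adjusted p = 0.779, limma, Benjamini-Hochberg). Rfx4 read 449, 452 and 611 against 676, 504 and 646 (0.27, SE 0.19, adjusted p = 0.788). Rfx3 read 2424, 2860 and 2833 against 2890, 4042 and 2396 (0.17, SE 0.20, adjusted p = 0.855), and without knockout replicate 2 its difference was -0.04.

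By role, the germline median was -0.24 for the 5 outer arm members, 0.23 for the 2 docking factors and -0.05 for the 8 inner arm members. It was -0.31 for the 3 radial spoke members, -0.24 for the 6 central apparatus members, -0.23 for the 4 tektin and inner wall members and -0.04 for the 3 ruler and nexin members. The inducible medians in this order were -0.23, -0.37, -0.21, -0.73, -0.31, -0.31 and -0.02. The called outer arm, spoke and light chain genes of the inducible comparison had germline values of -0.24 for Dnaic2, -0.31 for Rsph1 and -0.54 for Dynlrb2, none of them called. A split by level gave 22 of 25 germline members with means of 10 to 100 below 0 (median -0.41, against -0.07 for all genes of this range). Ccdc146 among them reached the minimum only because of its wild-type mean (23.4, against 5.39 in knockouts). With means of 100 or more, 6 of 15 lay below 0 (median 0.02, against -0.04). In replicates 1, 2 and 3, the low members' median difference from the wild-type mean was 0.25, 0.20 and -0.41 in wild-type libraries. In knockout libraries it was -0.62, -0.58 and -0.21, so wild-type replicate 3 lay below knockout replicate 3. Both called members had means of 10 to 100, where 0.928% of all genes were called lower, against 0.592% at 100 or more.

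**Figure D3:**
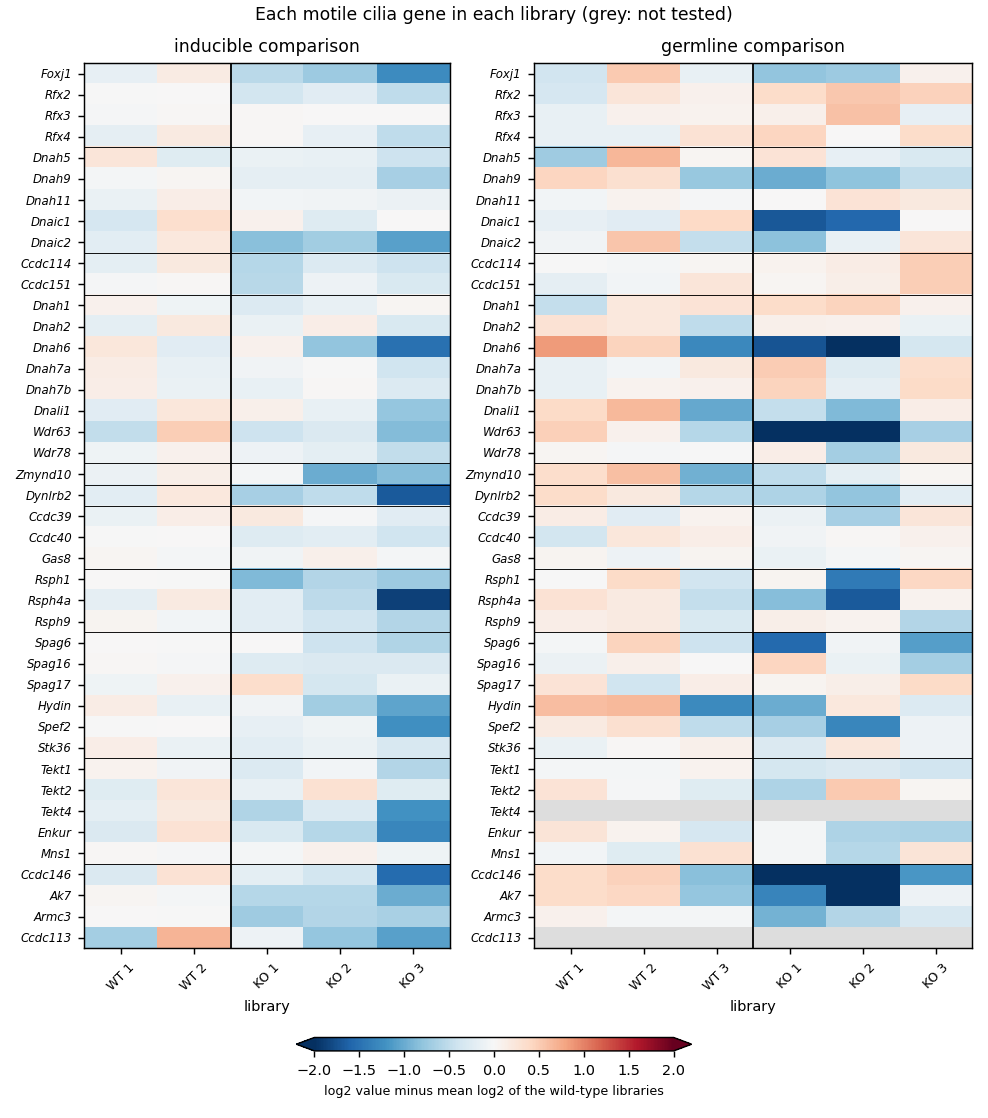
Colour gives the log2 value of each member (rows, ordered by role, black lines between roles) in each library (columns) minus the mean log2 value of the wild-type libraries of its table, with grey where a gene was not tested. Knockout replicate 3 is the bluest inducible column (median -0.55), and wild-type replicate 3 and knockout replicate 3 lie between the other germline libraries for Wdr63 and Ccdc146.

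Of the 40 members tested in both comparisons, 28 had log2 fold changes below 0 in both (24.8% of all genes), 11 were above 0 in the germline and below 0 in the inducible comparison, and 1, Rfx3, was above 0 in both. No gene was called in both. A share of all genes was counted only for signs below 0 in both. The tables were normalized apart, so these signs stand side by side without a test of the difference.

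Other genes of the motile cilium were taken from a list of 53 further axonemal and assembly genes, of which 43 were tested in each comparison. In the inducible knockouts 5 fell and 0 rose: Cfap126 (92 and 126 against 65.2, 54.5 and 44.8; -0.98, SE 0.23), 1700003E16Rik (-0.88, SE 0.23), Cdkl4 (-0.87, SE 0.22), Ropn1l (-0.75, SE 0.27) and Lrrc23 (-0.64, SE 0.22). Their adjusted p lay between 0.669 and 0.825 (limma, Benjamini-Hochberg). Across all genes tested in that comparison, 0.490% were called lower and 0.802% higher. Log2 fold changes were below 0 for 39 of 43, against 50.8% of all genes, with a median of -0.37. Cfap126 is a microtubule-binding protein of motile cilia, and Ropn1l and Lrrc23 belong to the radial spoke. In the germline knockouts 2 of 43 fell, against 0.667% of all genes, and 0 rose. Among the 2 was Cfap53 (-1.46, SE 0.61, adjusted p = 0.779, limma, Benjamini-Hochberg). Below 0 lay 31 of 43, against 56.0% of all genes, with a median of -0.28. Cfap53 had a wild-type mean of 18.25 and a knockout mean of 7.14, so it was tested only because of its wild-type level. Without any single germline library other than knockout replicate 3 this count was 0 or 1 over this list and those that follow, and without knockout replicate 3 it was 13.

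Genes of the multiciliation switch and of centriole amplification were tested in smaller number. Ccno, a cyclin-like protein of that step, fell in the inducible knockouts, from 247 and 330 to 181, 184 and 117 (-0.85, SE 0.23, adjusted p = 0.740, limma, Benjamini-Hochberg). It was the 1 called of 8, against 0.490% of all genes. Of the 8, 6 lay below 0, against 50.8% of all genes, with a median of -0.47. Gmnc, the upstream coiled-coil regulator, read 800 and 911 against 755, 860 and 373, and Mcidas, another regulator of the switch, 194 and 234 against 167, 199 and 84.7. Neither was called, and knockout replicate 3 was the lowest for each. In the germline comparison 0 of 7 were called in limma, 0 of 7 had an unadjusted P of at most 0.05, and the median was -0.14.

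Primary cilium and intraflagellar transport genes, which build cilia of every kind, had medians close to 0. Of 41 tested, 0 were called in either comparison. At an unadjusted P of at most 0.05 in limma, 1 was lower in the germline and 2 in the inducible knockouts. The shares of all genes were 2.45% and 3.03%. The germline median was -0.01, with single genes between -0.71 and 0.47. The inducible median was -0.04, with single genes between -0.26 and 0.17, and 32 of 41 lay below 0, against 50.8% of all genes.

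**Figure D4:**
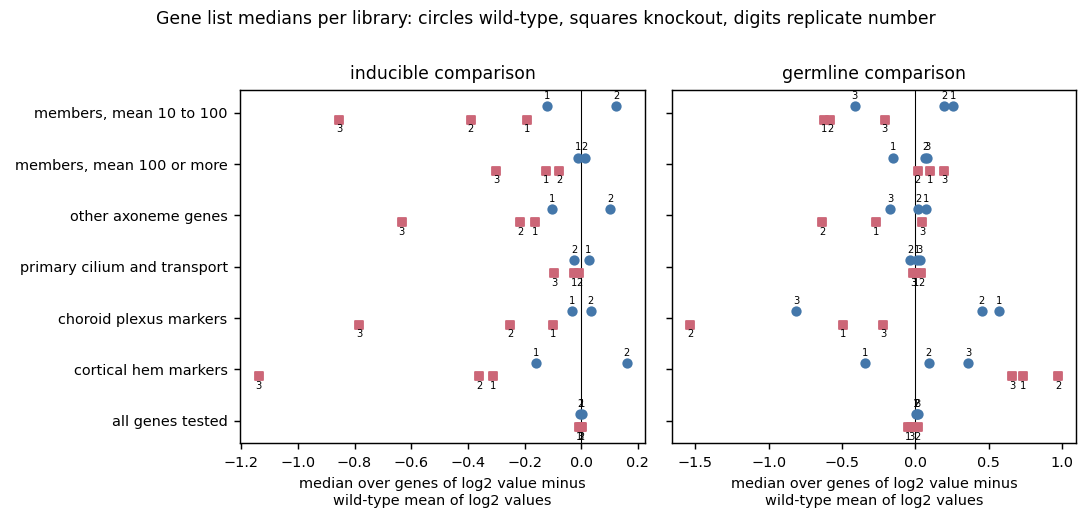
Median over the genes of each list of the log2 value minus the wild-type mean, for each library (circles, wild-type; squares, knockout; digits, replicate number). Inducible knockout replicate 3 is lowest for members of low level (-0.85), choroid plexus (-0.78) and cortical hem markers (-1.14), while the germline knockouts are high for the hem markers (0.66 to 0.97).

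Markers of the choroid plexus, the multiciliated tissue at this stage, are given beside the members. Their 13 genes in the inducible table summed to 5717 and 6085 in wild-type and 5469, 4719 and 3475 in knockout libraries. Of 10 tested, 9 lay below 0 (median -0.41), against 50.8% of all genes. The 1 called lower, against 0.490% of all genes, was Clic6, a chloride channel protein of that epithelium. Clic6 is also among the genes that the study lists as down-regulated in its inducible knockouts. The defining marker Ttr, the thyroxine carrier, read 2144 and 2430 against 2374, 1839 and 1025. In the germline table the sums were 6798, 7715 and 2863 in wild-type and 3823, 1913 and 3791 in knockout libraries. Of 10 tested, 8 lay below 0 (median -0.52), against 56.0% of all genes, and 2 were called lower, against 0.667%. There Ttr fell, from 4710, 4950 and 1146 to 569, 713 and 1663 (-1.77, SE 0.64, adjusted p = 0.779, limma, Benjamini-Hochberg), and so did Kcne2, whereas Otx2 and Sostdc1 lay at 0.62 and 0.28. Wild-type replicate 3 was low for this list as for the low members. No defining marker was at 0 in every library, and Kl, Cldn2 and Prlr had means under 10. The part of these markers in the members' differences was not tested.

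Cortical hem markers, from the medial edge of the cortex next to the choroid plexus, went in opposite directions. All 14 tested lay below 0 in the inducible comparison (median -0.58), against 50.8% of all genes. Of these, 4 were called lower, against 0.490%. In the germline comparison 0 of 14 lay below 0 (median 0.70), against 56.0% of all genes. There 7 were called higher, against 2.07%. Rspo1, Rspo2 and Wnt8b of this list are among the genes that the study lists as down-regulated in its inducible knockouts. The summed level of the hem markers was 11050 and 13316 in inducible wild-type and 10212, 9566 and 5606 in knockout libraries. It was 3567, 4595 and 5710 in germline wild-type and 7718, 8533 and 6935 in knockout libraries. Radial glia markers, of the cortical progenitors themselves, had an inducible median of -0.01 and a germline median of 0.10. The part of the hem markers in the members' differences was not tested either.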

How the data were processed

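Poly(A) RNA libraries (TruSeq, HiSeq2000) of 11 samples were sequenced. TopHat (1.2.0 in the submitters' processing notes) was used by the authors for alignment to mm9, followed by counting over RefSeq exons and TMM normalization in edgeR. As signal, the authors deposited the resulting normalized counts per gene, with 1 table per comparison; they are not whole numbers and not scaled by gene length, so no count model was fitted and library depth is unknown. All per-sample columns were used.

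Each table was analysed alone as log2(normalized count + 1), with a mean of at least 10, in R 4.3.3 with limma 3.58.1 (lmFit, eBayes with trend, two-sided) and Benjamini-Hochberg adjustment over all genes tested. Calls used the thresholds of the study, 1.5-fold with P (unadjusted) no higher than 0.05. The fits were tested on simulated data. Dynein heavy chains named Dnahc in the annotation were matched by symbol and synonym. Groups and replicate numbers came from the labels. Members and lists were chosen with earlier results of these data known. Named with full statistics are the 4 regulators and all called members, and of other pathway lists up to 5 called genes. The values of 1 called gene of those lists are not reported here. Other members were described by role after their values were seen. Alternatives were another pseudocount (0.5 or 5), another minimum (none or 50), quantile normalization, array weights, a replicate block, a Y-linked covariate (germline only) and leaving out each library. Promoters were searched with Python 3.11.15.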

Additional observations from a re-analysis of the deposited data

Results flagged for a closer look

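In 4 members every germline knockout library lay above the germline wild-type mean and every inducible knockout library below the inducible wild-type mean. Their germline and inducible log2 fold changes were 0.45 and -0.37 for Rfx2, 0.24 and -0.42 for Ccdc114, 0.22 and -0.32 for Ccdc151, and 0.16 and -0.082 for Dnah11. The difference between the comparisons was not tested, since the tables were normalized apart. The share of all genes that meet the same rule was not counted. For Rfx2 and Ccdc114 the groups did not overlap in either comparison, for Dnah11 they overlapped in both, and for Ccdc151 in the germline comparison. Separate groups with higher knockouts were found for 5.90% of all germline genes, and with lower knockouts for 12.2% of all inducible genes. The groups compared hold 2 or 3 libraries, so no test for single outlying libraries was made.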

How the results depend on the processing

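The members' median stayed below 0 in both comparisons under every alternative run. Over all germline genes the median was itself -0.04 in the main fit, and 56.0% of them lay below 0. With a minimum mean of 50, germline called members went from 2 to 0, other pathway genes from 2 to 0, members below 0 to 13 of 24 and the median to -0.028; inducible called members went from 6 to 2, with 29 members tested. Without a filter 1 other pathway gene was called lower in the germline, and with the Y-linked covariate 0, with a member median of -0.32. Array weights reversed germline Rfx3 (-0.0045) and Rsph1 (0.15). Leaving out 1 library gave 0 to 7 germline and 2 to 11 inducible called members, 0 to 13 germline and 3 to 8 inducible other pathway genes lower, 0 to 1 germline other pathway genes higher, and germline medians of -0.32 to -0.078. Values changed sign when 1 library was left out for germline Rfx3 (-0.036 to 0.34), Dnaic2 (-0.49 to 0.044) and Rsph1 (-0.68 to 0.23), and inducible Rfx3 (-0.0031 to 0.029). The causes were not tested. Leaving out the 4 members that share reads or exons, chosen after seeing the data, left 2 and 6 called. Across all genes, array weights raised the germline calls from 93 lower and 289 higher to 484 and 560. Same-numbered libraries deviated with correlations of -0.12, 0.31 and 0.25 in the germline and -0.35 and -0.05 in the inducible table. Germline wild-type replicate 3 correlated best with knockout replicate 1 (0.33), and wild-type replicate 2 with knockout replicate 2. Deviations from a group mean add up to 0, and those of 2 inducible wild-type libraries mirror each other. These values therefore cannot decide whether same-numbered libraries were paired. The replicate block called 3 germline members and 0 germline other pathway genes; it called 3 inducible members, but there knockout replicate 3 has no wild-type partner and drops out, and without it 4 were called with no block. No member had an adjusted p under 0.05 in limma under any alternative (lowest 0.165). Low levels and 2 or 3 libraries a group limit what could be detected.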
